A study of Mus musculus with 2 samples.

Results

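The 42 collagen genes described here were all protein-coding genes on mouse autosomes whose symbol reads Col, a number, a and a number (Col1a1, Col15a1 and so on), out of 20722 autosomal protein-coding genes with an annotated coding transcription start site. Open chromatin was mapped by DNase-seq, in which DNase I cuts accessible regulatory DNA, in whole thymus of newborn mice (strain B6NCrl, age 0 days, males and females pooled, labelled healthy, no treatment named). The single group had 2 biological replicates with different biosamples and the same donor label, so a spread over n = 2 is that between these samples and may in part be technical. Replicate 1 had 154812 peaks and replicate 2 had 139702, each 150 bp wide except 1 peak, with a score from 1 to 150 deposited by the authors for every peak. There was no second condition, so values are described and no p-value is given.

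Collagens are triple-helical proteins of the extracellular matrix, built from alpha chains that are each encoded by a separate gene. Fibrillar collagens form the fibres of connective tissue, FACIT collagens attach to these fibres, type IV chains form the network of basement membranes, type VI chains form beaded filaments, multiplexins are chains of basement membrane zones that carry an endostatin-like domain, and transmembrane collagens sit in the plasma membrane. In the thymus, fibroblasts of the capsule and septa, vessels and epithelium lay down this matrix, while most cells of the organ are developing T cells. In whole tissue, fewer cells of a type and weaker opening in each cell cannot be told apart.

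Open promoters were the minority among collagen genes. A promoter peak, a peak with its midpoint within 1000 bp of a coding start, was listed in both replicates for 12 of 42 collagen genes (28.6%), against 63.7% of all autosomal coding genes. Such genes are called open, and a gene without a promoter peak is a gene with none listed. The share with a promoter peak was 35.7% ± 3.37 (SD, n = 2), 33.3% in replicate 1 and 38.1% in replicate 2, and over all genes it was 65.9% ± 0.437. The distance between the collagen share and the share of all genes was larger than the spread between replicates, which does not measure variation among genes. Another 6 collagen genes had a promoter peak in 1 replicate alone, where 4.42% of all genes did, and 24 had none. All 6 were weak, with best scores between 10 and 32. A promoter peak in both replicates was found for 4 of 11 fibrillar, 2 of 9 FACIT, 2 of 2 multiplexin, 3 of 4 transmembrane and 1 of 6 beaded filament genes. It was found for 0 of 4 basement membrane network genes, 0 of 3 short-chain network genes, 0 of 2 genes of no class, and not for the single anchoring fibril gene.

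**Figure D1:**
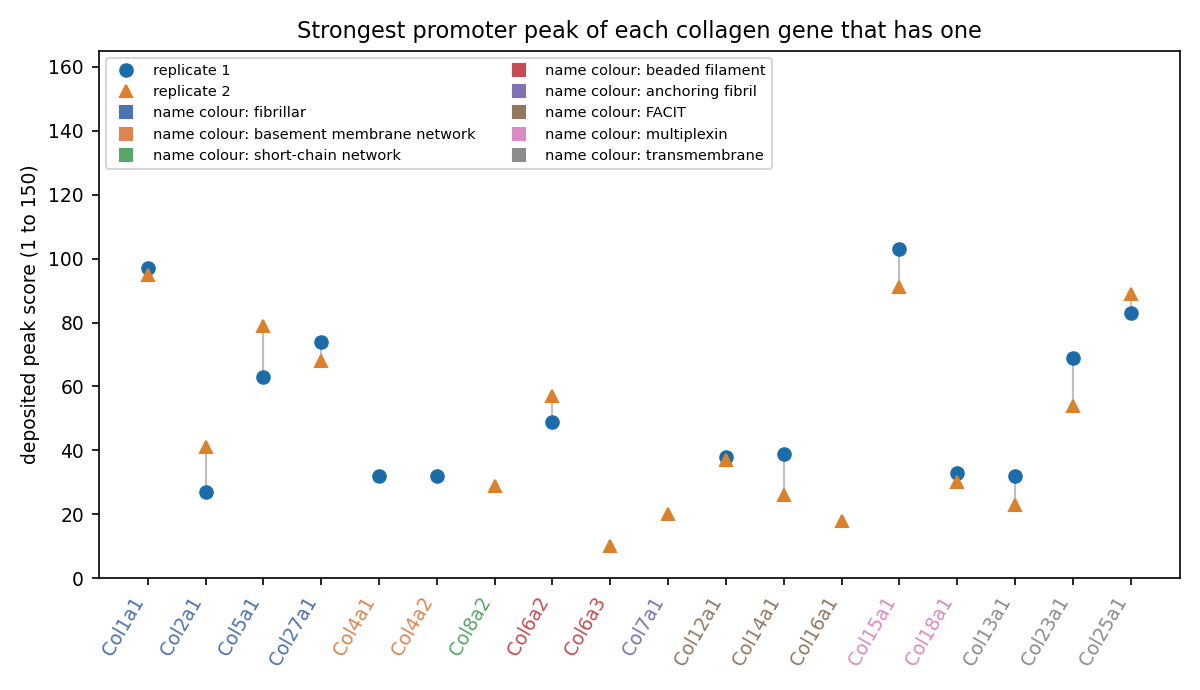
Deposited score of the strongest promoter peak in replicate 1 (circles) and replicate 2 (triangles) for the 18 collagen genes with any promoter peak, with gene names coloured by class and a grey line joining the replicates. Col1a1, Col15a1 and Col25a1 score above 80 in both replicates, and the 6 genes with a single point score between 10 and 32.

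The strongest promoter peaks of the 4 open collagen genes with the highest mean rank are shown with their sequence, because they include CpG-rich sites next to a start and CpG-poor sites at the edge of the window. Rank is the percentage of peaks in the same list with a lower score. Sequences are the plus strand of GRCm38 from 5′ to 3′, and capitals mark matches, on either strand, to any of 10 short consensus sequences that are spelled out further on.
Col15a1 promoter, chr4:47302716-47302865: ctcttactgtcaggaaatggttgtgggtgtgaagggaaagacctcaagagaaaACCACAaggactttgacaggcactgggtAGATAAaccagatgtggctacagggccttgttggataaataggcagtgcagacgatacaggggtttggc
Col1a1 promoter, chr11:94937136-94937285: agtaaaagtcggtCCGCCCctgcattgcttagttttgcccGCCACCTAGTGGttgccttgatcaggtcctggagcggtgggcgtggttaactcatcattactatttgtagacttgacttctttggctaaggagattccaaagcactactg
Col25a1 promoter, chr3:130180716-130180865: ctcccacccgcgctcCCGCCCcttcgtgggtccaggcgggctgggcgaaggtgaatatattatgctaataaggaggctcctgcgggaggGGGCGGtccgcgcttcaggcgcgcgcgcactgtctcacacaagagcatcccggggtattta
Col27a1 promoter, chr4:63215256-63215405: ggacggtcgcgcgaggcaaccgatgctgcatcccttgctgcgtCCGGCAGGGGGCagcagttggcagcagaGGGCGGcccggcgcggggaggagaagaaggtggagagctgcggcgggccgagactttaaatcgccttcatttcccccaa
The Col15a1 and Col1a1 sequences hold 1 and 5 CpG dinucleotides and lie 931 bp upstream of a coding start and 987 bp downstream of one. Those of Col25a1 and Col27a1 hold 15 CpG each, and lie 100 bp and 104 bp upstream of the start.

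Of the genes for the major fibre collagens, Col1a1 had open chromatin at its start region and Col1a2 and Col3a1 had no promoter peak. Col1a1 encodes the alpha 1 chain of type I collagen, the main protein of connective tissue fibres. It lies on chromosome 11 from 94936224 to 94953042, and its strongest promoter peak scored 97 in replicate 1 and 95 in replicate 2. That peak lay in an intron at 987 bp and 967 bp from the start in the replicates, just inside the window, and a weaker peak at 347 bp (score 28) was listed in replicate 2 alone. With a window of 500 bp Col1a1 was no longer counted. Col1a2, whose product joins that of Col1a1 in the type I fibre, had no promoter peak in either replicate. Its 4 distal shared peaks were all intergenic, the nearest 39.3 kb from a start. Col3a1, the gene of type III collagen of reticular fibres, had 1 distal shared peak, in an intron 2.573 kb from a start, with scores of 36 and 32. Its neighbour Col5a2, 24.6 kb away, also had a single one, with scores of 42 and 22.

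The other open fibrillar genes were Col5a1, Col27a1 and Col2a1. Col5a1, which encodes a chain that helps start fibre assembly, had its strongest promoter peak 134 bp upstream of the start, with scores of 63 and 79. It had 3 promoter peaks in replicate 1, all with a counterpart, and 5 in replicate 2, of which 3 had one. Col27a1 had 4 in each replicate, all with a counterpart, and the strongest scored 74 and 68. Col2a1, the cartilage collagen gene, had a weaker promoter peak in an exon, with scores of 27 and 41. It also had an intronic distal peak 11.5 kb from a start with scores of 103 and 98, stronger than its promoter peak in both lists. Its distal peaks numbered 10 in replicate 1 and 3 in replicate 2, of which 2 were shared. Of the cartilage marker genes, Sox9 (score 34) and Acan (score 25) had a promoter peak in replicate 1 alone and Matn1 had none, and the part of cartilage in the Col2a1 peaks was not tested. Col11a1 had no shared peak inside it, and no peak was assigned to it in either list. Within 100 kb of its starts Col24a1 had 3 distal peaks in replicate 1 and none in replicate 2. Its body held 2 shared peaks outside that assignment, one 115724 bp from its own start with scores of 36 and 25, the other nearest to Znhit6 with scores of 56 and 55. Col5a3 and Col11a2 had no promoter peak and 3 and 1 distal shared peaks.

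The genes of the basement membrane network had few or no peaks at their starts. Col4a1 and Col4a2, which encode the chains found in nearly all basement membranes, run in opposite directions from overlapping starts on chromosome 8, 21 bp apart, and share any promoter peak. Replicate 1 had 3 such peaks, with scores of 32, 28 and 23, and replicate 2 had none. The window held 97 CpG dinucleotides, a content at which 94.1% of all genes were open in both replicates. Col4a3 and Col4a4, the other pair with opposed starts, had no promoter peak and 6 and 2 distal shared peaks. Because the annotated start of Col4a1 lies inside Col4a2, sites in the body of Col4a2 are nearer to the start of Col4a1 than to its own. The 8 distal shared peaks counted for Col4a1 and the 0 for Col4a2 are therefore a count for the pair, and 2 of the 8 lie inside Col4a2. Another 9 shared peaks inside Col4a2 were nearest to Rab20 and are not in this count.

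Among genes of the short-chain network, beaded filaments and anchoring fibrils only Col6a2 was open in both replicates. Its strongest promoter peak, in an exon, scored 49 in replicate 1 and 57 in replicate 2. Col6a1, which lies on the same chromosome and encodes its partner chain, had no promoter peak and 5 distal shared peaks, the strongest 9.02 kb upstream with scores of 98 and 71. Col6a3, the gene of the third chain of the main type VI molecule, had a promoter peak in replicate 2 alone, at a score of 10, and 7 distal shared peaks. Col6a4, Col6a5 and Col6a6 had no promoter peak and 4, 1 and 2 distal shared peaks. Col7a1, the gene of the anchoring fibrils that fix epithelium to the matrix beneath, had a promoter peak in replicate 2 alone (score 20) and no distal shared peak. Col8a2 had promoter peaks in replicate 2 alone (best score 29), at an internal coding start, and 5 distal shared peaks, of which the strongest had scores of 91 and 77. Col8a1 had no promoter peak and no distal shared peak assigned to it. Its body held 2 shared peaks nearest to Cmss1, one with scores of 86 and 57, the other with 52 and 31. Col10a1, a marker gene of growth plate cartilage, had 1 distal shared peak and no promoter peak.

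Of the FACIT genes, Col12a1 and Col14a1 had weak promoter peaks in both replicates. Col12a1 scored 38 and 37 at its start. The shared promoter peak of Col14a1 scored 39 and 26 and lay at an internal coding start 141 kb into the gene, while at the first start replicate 1 alone had a peak, with a score of 24. Col14a1 had a stronger peak just outside the window, 1.26 kb upstream of the first start, with a score of 79 in both replicates. The same held for Col16a1. Its promoter peak was listed in replicate 2 alone with a score of 18, but a peak 1.99 kb upstream of a start scored 114 and 111. Of the other 6 FACIT genes, Col9a2 had 5 distal shared peaks, Col22a1 3, Col9a1 2, Col9a3 and Col20a1 1 each, and Col19a1 had no peak assigned to it in either list. A shared peak with scores of 67 and 42 lay inside Col19a1, but its nearest coding start, that of Col9a1, was 107664 bp away, beyond the limit of 100 kb.

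Both multiplexin genes were open in both replicates, and Col15a1 had the most distal shared peaks of any collagen gene. Distal shared peaks are those of replicate 1 with a midpoint over 1000 bp from all coding starts, an overlap of at least 1 bp with replicate 2, and the nearest coding start within 100 kb. Col15a1 had 19 of them, 11.7% of all those at collagen genes, from 23 distal peaks in replicate 1 and 25 in replicate 2. Of all autosomal coding genes, 97.8% had fewer, a count not adjusted for the length of sequence assigned to each gene. Per 100 kb of that sequence, the territory described further on, Col15a1 had 10.6 distal shared peaks. Col8a2 (13.7), Col16a1 (13.5), Col9a2 (12.7) and Col1a1 (10.8) had more. No promoter peak was listed at the first start of Col15a1, and the first shared peak into the gene lay 26.8 kb downstream. Further coding starts lie at 79.9 kb, 80.1 kb and 95.6 kb, and the promoter peaks there scored up to 103 in replicate 1 and 91 in replicate 2. The highest score of the gene in replicate 1 was 113, at a distal peak 38.83 kb into it that scored 82 in replicate 2. Of the 19 distal shared peaks 4 lay upstream of the gene, 12 inside it and 3 between its end and the next coding gene, Tgfbr1, whose body begins 40.1 kb away. Their median rank was 72.8% in replicate 1 and 74.4% in replicate 2. Counting only the first coding start of each gene, an alternative chosen after the data were seen, Col15a1 and Col14a1 dropped out. With this setting 10 collagen genes (23.8%) were open, against 60.2% of all genes.

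**Figure D2:**
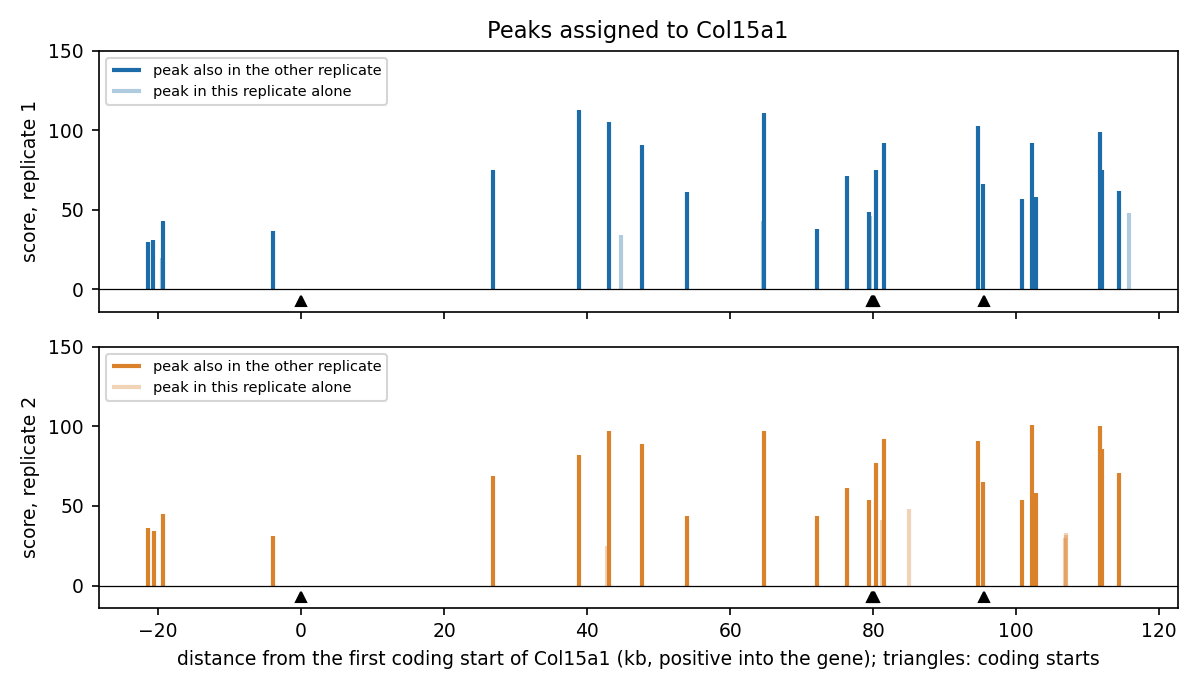
Score of every peak assigned to Col15a1 (vertical lines) against distance from its first coding start in kb, replicate 1 above and replicate 2 below, with pale lines for peaks without a counterpart in the other replicate and black triangles for annotated coding starts. No peak lies at the first start, and the tall lines begin at 26.8 kb and continue past the internal starts in both replicates.

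Col18a1, the gene whose product contains endostatin, was open at its first start with scores of 33 and 30. It had 7 distal shared peaks, all in its introns, the strongest with scores of 96 and 90, so that its introns held stronger peaks than its start in both replicates.

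Of the transmembrane collagen genes, Col25a1 and Col23a1 had the strongest promoters. Col25a1, first described as a component of amyloid plaques, scored 83 and 89, and Col23a1 scored 69 and 54. These best peaks of Col23a1 did not overlap, and the counterpart of the first scored 45 in replicate 2. Col13a1 had promoter peaks of 32 and 23 in the 2 lists at positions that did not overlap. It is 1 of the 12 genes counted as open, and promoter peaks of the other 11 overlapped between replicates. Col13a1 had 8 distal shared peaks and Col23a1 had 7. Col17a1, the hemidesmosome collagen of epithelial cells, had no promoter peak and 5 distal shared peaks, the strongest with scores of 62 and 53. Col26a1 and Col28a1, which belong to none of these classes, had no promoter peak and 9 and 4 distal shared peaks. The strongest distal shared peak of Col26a1, in an intron 18.97 kb from a start, scored 115 and 121 and ranked above 94.5% and 94.3% of peaks.

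For the 6 collagen genes richest in distal shared peaks, the strongest such peak is printed because they are the open sites on which the distal counts of those genes rest, with capitals as above.
Col15a1 intron, chr4:47272876-47273025: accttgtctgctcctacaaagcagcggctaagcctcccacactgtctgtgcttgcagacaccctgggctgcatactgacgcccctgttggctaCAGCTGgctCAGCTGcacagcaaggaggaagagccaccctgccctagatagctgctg
Col1a1 upstream, chr11:94866676-94866825: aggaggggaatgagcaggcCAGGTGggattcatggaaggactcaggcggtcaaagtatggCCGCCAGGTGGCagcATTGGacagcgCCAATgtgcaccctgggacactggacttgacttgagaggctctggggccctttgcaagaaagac
Col26a1 intron, chr5:136864076-136864225: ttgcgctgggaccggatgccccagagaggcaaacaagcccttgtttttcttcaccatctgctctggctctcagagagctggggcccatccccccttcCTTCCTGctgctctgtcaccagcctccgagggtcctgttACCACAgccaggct
Col13a1 intron, chr10:61906456-61906605: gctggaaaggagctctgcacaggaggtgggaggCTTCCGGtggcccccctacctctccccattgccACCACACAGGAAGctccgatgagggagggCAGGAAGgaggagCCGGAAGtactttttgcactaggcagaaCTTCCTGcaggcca
Col16a1 upstream, chr4:130045776-130045925: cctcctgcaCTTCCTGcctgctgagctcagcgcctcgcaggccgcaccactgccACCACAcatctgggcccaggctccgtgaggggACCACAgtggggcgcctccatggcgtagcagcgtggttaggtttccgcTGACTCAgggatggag
Col4a1 and Col4a2, in an intron of Col4a2, chr8:11393536-11393685: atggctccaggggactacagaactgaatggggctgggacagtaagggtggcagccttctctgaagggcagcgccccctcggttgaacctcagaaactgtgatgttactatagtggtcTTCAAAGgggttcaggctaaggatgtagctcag
Their scores in replicates 1 and 2 were 111 and 97 at Col15a1, 79 and 71 at Col1a1, 101 and 92 at Col13a1, and 71 and 63 at the Col4a1 and Col4a2 pair. The Col13a1 sequence holds 5 matches to the ETS consensus and 1 to RUNX, that of Col16a1 holds 2 RUNX, 1 ETS and 1 AP-1 match, and that of Col26a1 holds 1 RUNX and 1 ETS match. The Col15a1 sequence holds 2 copies of CAGCTG and no RUNX or ETS match. The Col1a1 sequence lies 69.5 kb upstream in intergenic DNA and holds a CTCF match, 2 copies of CACCTG and 2 of CCAAT. That of the Col4a1 and Col4a2 pair holds 1 TCF/LEF match.

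Open collagen promoters ranked low among open promoters. Over the 12 genes the mean rank of the strongest promoter peak had a median of 63.2%, and over all genes open in both replicates the median was 94.4%. The medians in the separate lists were 59.6% and 64.4% for collagen genes, and 94.5% and 94.3% for all genes. The highest collagen value was 88.1%, at Col15a1, and the lowest 21.6%, at Col13a1. None of the 12 lay above the median of all open genes, and 10 lay below its 25th percentile of 83.7%, all but Col15a1 and Col1a1.

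**Figure D3:**
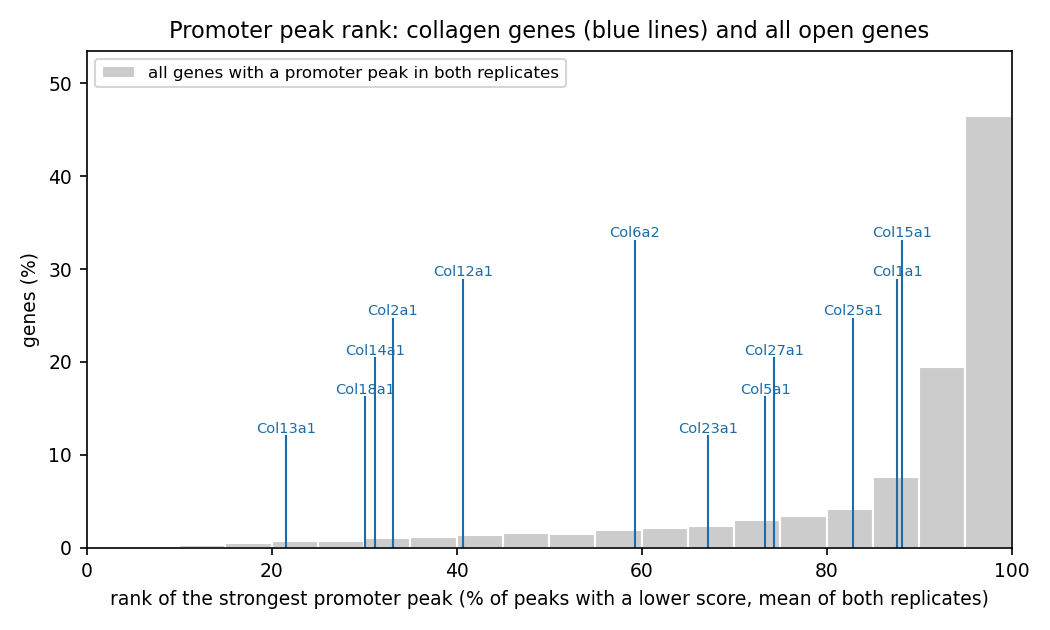
Grey bars give the percentage of all genes with a promoter peak in both replicates by the rank of their strongest promoter peak (mean of both replicates), and blue lines of arbitrary height mark the 12 collagen genes. The bars pile up at the right end, with a median of 94.4%, while the collagen lines spread from 21.6% to 88.1%.

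Collagen promoters differed in CpG content, which goes with open promoters over all genes, so counts were also read within quartiles of the number of CpG dinucleotides within 500 bp of the start. The median number was 36.5 for collagen genes and 50 for all genes. In the quartile of fewest CpG (0 to 16) 0 of 9 collagen genes were open in both replicates, against 10.6% of all genes. These 9 were Col3a1, Col5a2, Col6a1, Col6a4, Col9a1, Col10a1, Col17a1, Col20a1 and Col28a1. From 17 to 50 CpG 4 of 20 were open, against 62.3%. From 51 to 77 CpG 6 of 9 were open, against 90.4%, and Col8a2, Col9a3 and Col26a1 were not. From 78 CpG up 2 of 4 were open, against 94.1%, namely Col5a1 and Col23a1. The collagen share was the lower in each quartile, with few genes in each.

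**Figure D4:**
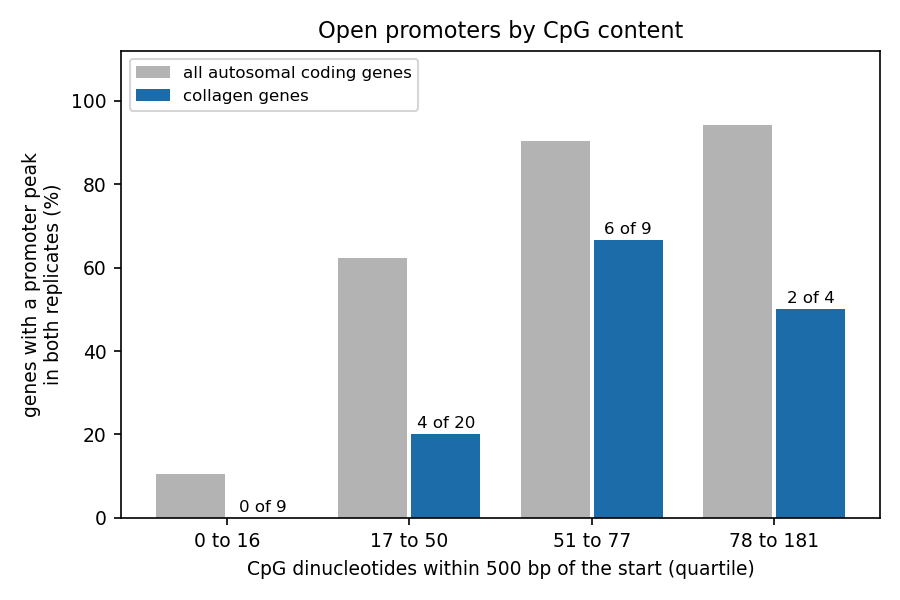
Percentage of genes with a promoter peak in both replicates for all autosomal coding genes (grey) and collagen genes (blue, with counts above the bars). Quartiles are of the CpG number around the coding start of the gene that has the most. The blue bar is below the grey bar in each quartile, with 0 of 9, 4 of 20, 6 of 9 and 2 of 4 collagen genes.

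Distal open chromatin was found at most collagen genes. At least 1 distal shared peak was assigned to 35 of 42 genes (83.3%), against 66.5% of all genes, and the 42 genes had 163 in all. The mean was 3.88 per collagen gene and the median 3, against 3.26 and 1 over all genes. In the separate lists the mean number of distal peaks was 5.55 ± 0.572 per collagen gene (SD, n = 2) and 4.62 ± 0.294 per gene overall. Collagen genes have more sequence around their starts to which a peak can be assigned. This territory, the sequence within 100 kb that is nearer to the gene's coding starts than to those of others, had a median of 134 kb for collagen genes and 44.8 kb for all. Per 100 kb of territory collagen genes had 2.97 distal shared peaks and all genes 4.58, so the order turned. Without Col15a1, an exclusion chosen after the data were seen, the collagen density was 2.71. In the quartile of genes with the longest territories, which held 24 of the collagen genes, the mean was 4.46 for collagen genes and 6.45 for all. In the quartile below, with 10 collagen genes, the means were 4 and 3.88. In the second shortest quartile, with 6 collagen genes, they were 2.67 and 1.92, and in the shortest, with 2, they were 0 and 0.798. The collagen mean was thus the lower in the longest and shortest quartiles and the higher in the other two. The share with at least 1 distal shared peak was 82.6% over all genes of the longest quartile and 20 of 24 for collagen genes there.

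Classes differed in distal density, with few genes in each. The multiplexins had 7.65 distal shared peaks per 100 kb, the 2 genes of no class 5.71, the transmembrane genes 3.44 and the basement membrane network 3.09. The beaded filament genes had 2.77, FACIT genes 2.32, short-chain genes 2.28, fibrillar genes 2.03 and the single anchoring fibril gene 0. The 2 highest values each rested mainly on 1 gene. Col15a1 had 10.6 and Col18a1 4.33, and Col26a1 had 8.41 and Col28a1 3.31. Together 10 genes held 90 of the 163, namely Col15a1 with 19, Col1a1 with 10, Col26a1 with 9, Col4a1, Col13a1 and Col16a1 with 8, and Col6a3, Col14a1, Col18a1 and Col23a1 with 7. Of these 10, 6 were also open at a promoter in both replicates. At Col1a1, and likewise at Col16a1, 2 overlapping peaks of replicate 1 had the same counterpart in replicate 2, and both were counted. The 24 genes with no promoter peak in either list had 61 distal shared peaks, with at least 1 at 20 of them, and a median of 2, while the 12 open genes had 74 and a median of 6. These counts were not adjusted for territory. They were also not set beside open and other genes of the whole genome, so no trait of collagen genes is read from them. Replicate 1 listed more distal peaks than replicate 2 at 17 genes, fewer at 10 and as many at 15. The widest gaps were at Col2a1, with 10 and 3, and at Col1a1 and Col14a1, with 15 and 10 and with 12 and 7.

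**Figure D5:**
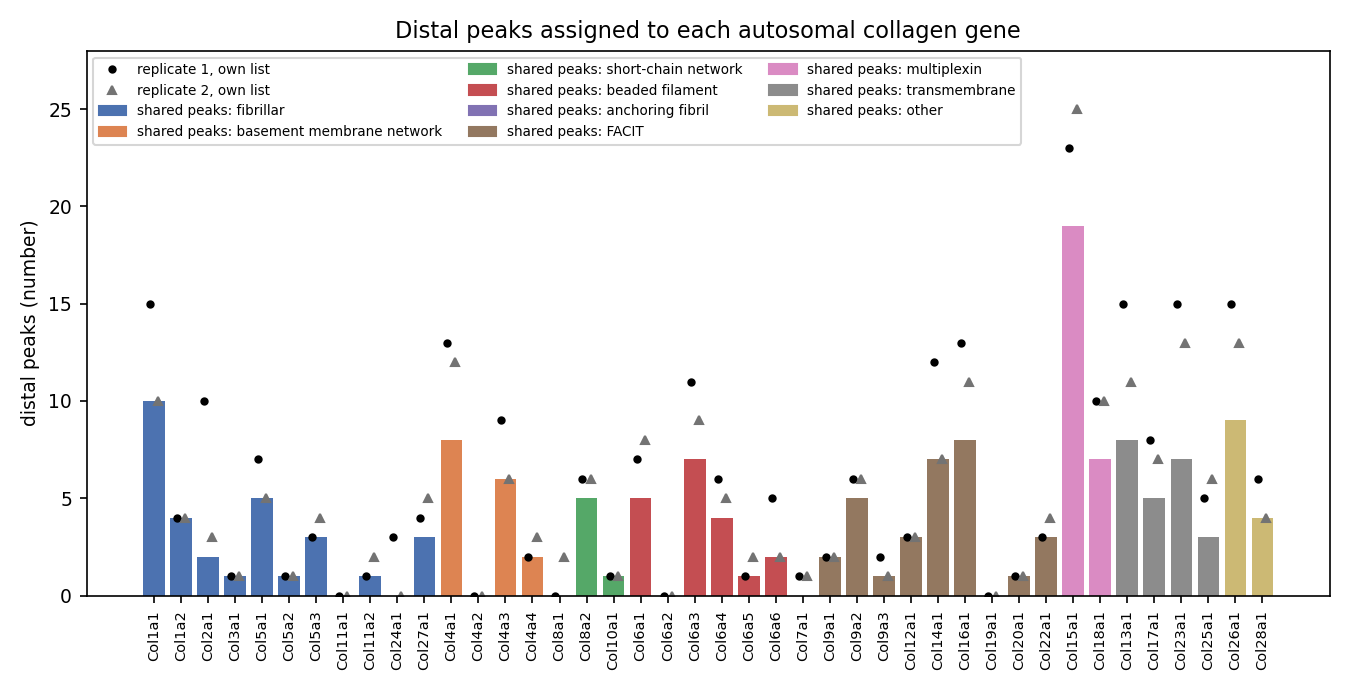
Number of distal shared peaks of each of the 42 collagen genes (bars, coloured by class), with the number in each replicate's own list (circles for replicate 1, triangles for replicate 2). Col15a1 stands highest with 19 shared peaks and 7 genes have no bar.

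Of the 163 distal shared peaks 98 lay inside the gene they were assigned to, 4 inside another coding gene and 61 between genes. By sequence type 95 were in introns and 7 in exons. Neither split was counted over all genes. The 163 peaks lay 1 to 10 kb from the start in 30.7% of cases and 10 to 50 kb in 52.1%, against 37.0% and 47.8% of all distal shared peaks. Their median rank, as a mean of both lists, was 53.6%, against 58.8% for all. Only 2 of them, 1.23%, ranked above 90% of both lists, against 4.39% of all distal shared peaks, and these were the printed peaks of Col26a1 and Col16a1. In replicate 1 65.2% of the distal peaks at collagen genes had a counterpart, against 67.5% for all genes, and in replicate 2 76.9% against 74.1%.

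Position inside a collagen gene did not always go with assignment to it. The bodies of the collagen genes held 157 shared peaks, of which 35 (22.3%) were nearest to a coding start of another gene. This share was not computed over all genes, so no trait of collagen genes is read from it. The median gene length was 111 kb for collagen genes and 17.6 kb for all. In Col4a2, 9 of 11 inside peaks were nearest to Rab20 and 2 to Col4a1. In Col26a1, 7 of 16 were nearest to Myl10, a myosin light chain gene. In Col27a1, Col25a1 and Col6a6, 3 each were nearest to Orm1, Etnppl and Pik3r4. Assignment by distance cannot tell which gene such a site acts on. No collagen promoter peak lay within 1000 bp of a coding start of a gene outside the family.

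Consensus sequences of T lineage and general factors were counted in the 150 bp of each peak, as exact matches on either strand. The RUNX consensus was TGTGGT. For ETS factors it was CCGGAAG, and the form CAGGAAG also counted. The E-boxes searched were CAGCTG and, as a separate motif, CACCTG. For TCF/LEF factors CTTTGAT was searched, and its variant CTTTGAA also counted. For AP-1 TGACTCA was searched, together with its other strand TGAGTCA. Factors of the GATA family were represented by AGATAA, NFY by the box CCAAT, SP and KLF factors by GGGCGG, and CTCF by its core consensus. A CTCF match can contain CACCTG. For distal peaks the share over all was taken without the limit of 100 kb, over 77194 autosomal shared peaks. Within that limit all genes had 67569, so the 2 sets differ in this respect. In distal shared peaks of collagen genes RUNX was matched in 35 of 163, or 21.5% (95% exact Clopper-Pearson interval 15.4% to 28.6%, counting error only). Over all autosomal distal shared peaks, taken in this way, it was matched in 21.2%. ETS was matched in 15.3% (10.2% to 21.8%) against 18.8%, and TCF/LEF in 5.52% (2.56% to 10.2%) against 8.21%. CTCF was matched in 25 collagen peaks, 15.3% (10.2% to 21.8%), against 9.09%. In the separate lists it was matched in 10.8% and 11.1% of collagen distal peaks, against 7.08% and 6.82%. Apart from CTCF, the share over all peaks was within the interval of the collagen share for each of the 10 consensus sequences in distal peaks. In the 23 promoter shared peaks SP/KLF was matched in 12, or 52.2% (30.6% to 73.2%), against 41.3% of all promoter shared peaks. NFY was matched in 2, or 8.70% (1.07% to 28.04%), against 20.3%. In the separate lists NFY was matched in 9.68% of promoter peaks of replicate 1, against 18.3%, and in 2.56% (0.0649% to 13.5%) of those of replicate 2, against 18.9%, so the value moved with the list used. A match is a run of letters and not a bound site, and peaks of the same gene are not independent.

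Genes that act on collagen were open in a larger share than the collagen genes, a difference with no test. Of 45 genes listed for collagen modification, cleavage, crosslinking, binding and breakdown, 29 (64.4%) had a promoter peak in both replicates, against 63.7% of all genes. The enzymes and chaperones of the endoplasmic reticulum made up the largest part. In that list 16 of 18 were open with a median rank of 88.9%, below the 94.4% of all open genes. Most have CpG-rich starts. Of the 10 with 78 CpG or more 9 were open, against 94.1% of all genes, and of the 6 with 51 to 77 CpG 6 were, against 90.4%, so the count is near that of all genes of like CpG content. The collagen galactosyltransferase gene Colgalt1 scored 136 and 137, the prolyl isomerase gene Ppib 135 and 136, and P4hb, the gene of a prolyl hydroxylase subunit, 132 and 139. Serpinh1, which encodes HSP47, the collagen chaperone, had no promoter peak and 7 distal shared peaks. Of the genes for propeptide cleavage and crosslinking 6 of 12 were open, with the highest scores at Loxl3 (79 and 113), Adamts3 (74 and 79) and Adamts2 (69 and 65). Pcolce, Lox and Loxl2 had no promoter peak in either list. Of the receptor genes 6 of 10 were open. The integrin gene Itgb1 scored 91 and 117, the discoidin receptor gene Ddr1 88 and 103, and Itga2 87 and 75, while Itga1, Itga11, Ddr2 and Gp6 had none. Of the collagenase and gelatinase genes Mmp14 alone was open in both replicates, with scores of 59 and 50, and Mmp2, Mmp8 and Mmp13 had no promoter peak.

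Marker genes of the cell types in the organ are given beside these results. All 10 thymocyte genes, among them Cd3e, Cd4, Rag1 and Lck, were open in both lists, with a median rank of 95.3%. The share of all autosomal coding genes open in both was 63.7%, against which the counts of these short lists are to be read. Of 12 mesenchyme and fibroblast genes 4 were open in both lists. Pdgfra scored 110 and 106, Pdgfrb 78 and 93, Twist2 35 and 25, and Thy1, which thymocytes also express, 109 and 117. Twist1, Tcf21, Foxd1 and Postn had a promoter peak in 1 replicate alone. Prrx1 and Fbn1 had no promoter peak and 1 distal shared peak each. Dcn and Lum had neither promoter nor distal peaks in either list. The starts of Dcn and Lum hold at most 10 and 7 CpG, and with 0 to 16 CpG only 10.6% of all genes were open. A promoter peak in both replicates was listed for 2 of 6 endothelial, 2 of 6 thymic epithelial, 2 of 4 smooth muscle and pericyte, 3 of 4 myeloid and 0 of 3 cartilage genes. The collagen genes are described here as a gene family and not as open chromatin of stroma. The part of each cell type in their peaks was not tested.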

How the data were processed

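DNase-seq peaks of 2 replicates were analysed. The authors deposited 1 peak list and 1 hotspot list per replicate, each derived from that replicate's mm10 alignments, per the labels and the accompanying text. Caller, thresholds, aligner and number of reads: not given in the sources used here. Depth is therefore unknown. The deposited peak score ranges from 1 to 150, what it counts is not stated, and it was used for ranks within a list. In the hotspot lists the deposited −log10 q-values run from 1.30 to a cap of 100. Only hotspot positions were used, as an alternative.

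Positions were checked against GRCm38, and no interval passed a chromosome end. Coding starts came from GENCODE M21 (21853 genes, 54361 starts on the main chromosomes), and 85 autosomal coding genes without one were left out. Sequences came from the RefSeq copy of GRCm38. All coordinates count from 1. Peaks nearer than 1000 bp to a start were promoter peaks, and other peaks went to the nearest coding start within 100 kb. Every member could be named. Values were given for members open in both replicates or in 1, for the 10 members with the most distal shared peaks, and, of the acting genes, for the 3 highest of each list (by mean score) and those without a promoter peak. The members and lists were chosen with earlier results of these data known. Counting steps were tested on simulated data. Software was pysam 0.24.0, scipy 1.17.1, pandas 2.3.3 and numpy 2.4.6 in Python 3.11.15, with matplotlib 3.10.9 for plots. Alternatives were promoter windows of 500 and 2500 bp, starts of all transcripts, the stronger 50% of peaks, a reciprocal overlap of 50%, a limit of 50 kb, hotspots, each replicate alone and, added after the data were seen, the first coding start alone.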

Additional observations from a re-analysis of the deposited data

Results flagged for a closer look

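Col4a5, a basement membrane collagen gene on chromosome X and outside the autosomal set, had 5 peaks in replicate 1, 2 at its promoter (best score 27) and 3 distal. This was above the count floor of 3, which takes no account of gene length. Replicate 2 had 2 peaks, 1 at the promoter with a score of 18 and 1 distal, below that floor, so the replicates fall on different sides of it. The gene had 1 distal shared peak. Its neighbour Col4a6 had no peak in either list. There were no control samples and no background for X-linked genes was computed, so the count says only that peaks were listed there.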

How the results depend on the processing

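Of 185 values under alternatives, 157 stayed within 1.5 times the reported count or within its error, and 28 moved. With a promoter window of 2500 bp 20 collagen genes were open (67.5% of all genes), with 4 FACIT, 2 beaded filament, and 1 each of the basement membrane, short-chain, anchoring and remaining genes, 2 collagenase genes, and a median rank of 70.3%. Genes gained were Col4a1, Col5a3, Col6a1, Col7a1, Col8a2, Col9a2, Col16a1 and Col26a1. With 500 bp the median rank was 59.2%. With starts of all transcripts 16 collagen genes were open (65.1% of all genes), and those gained were Col4a2, Col11a2, Col16a1 and Col26a1. In this setting 1 basement membrane gene, 1 remaining gene and 2 collagenase genes were open. With the stronger 50% of peaks 7 collagen genes were open (58.0% of all genes), 0 FACIT and 1 multiplexin, at a median rank of 74.3%, and distal shared peaks fell to 80, since fewer peaks were counted. With the first start alone, chosen after the data were seen, 1 FACIT and 1 multiplexin gene were open. With 1 replicate left out, 14 to 16 collagen genes were open (65.6% to 66.2% of all genes). Open genes then numbered 0 to 2 basement membrane, 0 to 1 short-chain, 1 to 2 beaded filament, 0 to 1 anchoring and 1 to 2 collagenase genes. The median rank was 45.9% to 46.6%, and distal peaks numbered 216 without replicate 1 and 250 without replicate 2, which need no counterpart. Hotspots gave 12 open collagen genes (64.2% of all genes). In each of these settings the collagen share of open promoters was below that of all genes. No paired analysis was possible because the series has a single group.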
